A study of Rattus norvegicus with 144 samples.

Results

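Expression of 10 circadian clock genes was followed in the liver, adrenal gland and pancreas of male Sprague Dawley rats aged 8 to 10 weeks that received either of 2 antiangiogenic compounds or no compound. The members were Per1, Per2, Cry1, Bmal1 (also written Arntl), Clock, Nr1d1, Nr1d2, Dbp, Tef and Bhlhe40, and every probe set that the platform annotation gives them was used. They made up 10 of 14217 annotated genes and 18 probe sets in the larger of the 2 deposited tables, and 9 of 10411 genes and 13 probe sets in the smaller one (36 arrays), which holds no probe set for Cry1. Clock had 4 probe sets, Nr1d2 and Tef 3 each, Per2 2 and the other members 1 each in the larger table.

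AMG A was given by mouth daily at 3 or 30 mg/kg, AMG B at 3 or 60 mg/kg, and the control animals of each compound's study received 0 mg/kg. The study set out to describe toxicity and gene expression at doses chosen to give mild to moderate effects tied to the compounds' antiangiogenic pharmacology. The 72 animals gave 144 Affymetrix arrays in 36 groups of 4. Liver was taken after 1, 4 and 14 days in both studies, adrenal after 1, 4 and 14 days for AMG B and after 14 days for AMG A, and pancreas after 14 days in both. Some adrenal and pancreas controls of day 14 carry no compound name in their labels and were placed by animal number, which lies between 3001 and 3036 for AMG A and between 1 and 36 for AMG B. The sources used here do not give the dosing vehicle, the hour of tissue collection or the lighting. Clock gene levels depend on the hour in all these tissues, and the part of sampling time in the values below was not tested.

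The deposited values are scores: each probe set was scaled to a mean near 0 and a standard deviation near 1 over the arrays, so a value of 1 lies about 1 standard deviation of that probe set above its mean. Scores are not folds, and levels cannot be compared between genes. AMG A livers were deposited in the smaller table, and the median score of each of those arrays lay between -0.774 and -0.729, against -0.109 to 0.0624 elsewhere, so their levels are compared only with each other. Marker genes fitted the labels: all 8 liver markers were above 0 in undosed AMG B livers and none in undosed adrenal or pancreas, all 5 measured adrenal cortex markers were above 0 in adrenal alone, and all 7 measured acinar markers in pancreas alone.

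The molecular clock is a feedback loop of transcription factors. CLOCK and BMAL1 bind E-boxes and switch on Per and Cry genes, whose proteins return to the nucleus and inhibit CLOCK and BMAL1. REV-ERB alpha and beta, the products of Nr1d1 and Nr1d2, repress Bmal1 through ROR response elements, so that Bmal1 peaks when they are low. DBP and TEF are output transcription factors that bind D-boxes, and BHLHE40 (DEC1) competes at E-boxes and also responds to hypoxia, nutrients and hormones. In liver the clock times metabolism, and in the adrenal cortex it gates steroid release.

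The elements that join these genes were searched for on both strands in the 250 bases before the RefSeq start sites (rat build GRCr8). The letters searched were CACGTG (E-box), CACGTT (E'-box), TTATGTAA and TTACGTAA (D-boxes), and the ROR response element by its consensus. Windows were found for 9 members, with 2 start sites each for Clock and Nr1d1, 11 in all. The 4 shown are windows that hold a match, of genes named in the results below. The windows of Per1, Clock, Nr1d2 and Dbp, which also carry results, held no match. The Per1 window (chromosome 10, 54304126 to 54304375) lies inside the annotated gene (54299002 to 54313804), so the bases before that gene were not searched. The other Nr1d1 window and that of Tef each held an E-box and are not shown. These 2 and 1 of the 2 Clock windows also lie inside their annotated genes. The capitals mark the ROR response element in Bmal1, the E'-box, read on the other strand, in Nr1d1, the D-box and the E'-box in Per2, and the E-box in Bhlhe40.
Bmal1, chr1:176766078-176766327, plus strand: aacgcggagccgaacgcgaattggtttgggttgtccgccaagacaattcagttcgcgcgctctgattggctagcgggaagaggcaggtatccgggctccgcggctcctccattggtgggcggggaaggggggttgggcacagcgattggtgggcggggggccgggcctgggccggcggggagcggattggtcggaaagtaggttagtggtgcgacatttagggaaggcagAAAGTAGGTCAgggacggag
Nr1d1, chr10:84231813-84232062, minus strand: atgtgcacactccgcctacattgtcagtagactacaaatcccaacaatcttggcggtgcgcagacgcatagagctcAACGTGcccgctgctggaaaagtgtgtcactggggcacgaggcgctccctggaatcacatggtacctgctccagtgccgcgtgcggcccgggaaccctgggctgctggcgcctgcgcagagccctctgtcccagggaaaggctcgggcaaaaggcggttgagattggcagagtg
Per2, chr9:99496994-99497243, minus strand: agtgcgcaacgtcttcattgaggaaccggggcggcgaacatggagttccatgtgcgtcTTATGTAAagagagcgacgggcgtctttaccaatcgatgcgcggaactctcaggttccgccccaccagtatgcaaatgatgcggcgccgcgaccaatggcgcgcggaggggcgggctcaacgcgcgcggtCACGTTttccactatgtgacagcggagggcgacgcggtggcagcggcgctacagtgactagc
Bhlhe40, chr4:143174200-143174449, plus strand: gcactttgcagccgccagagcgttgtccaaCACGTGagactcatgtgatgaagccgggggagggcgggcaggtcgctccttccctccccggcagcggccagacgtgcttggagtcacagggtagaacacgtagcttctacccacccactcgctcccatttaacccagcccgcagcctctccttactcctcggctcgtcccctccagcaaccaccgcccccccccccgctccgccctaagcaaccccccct
The Bmal1 element lies 20 to 10 bases before the start site, and the window reaches partly into the annotated gene (chromosome 1, 176766222 to 176864741). The Per2 window also reaches partly into its gene. The Nr1d1 match lies 174 to 169 bases before the start, those in Per2 192 to 185 and 62 to 57 bases, and that in Bhlhe40 220 to 215 bases. Of 33469 promoter windows of the same length, 0.317% held the ROR response element, 5.59% the E-box, 4.07% the E'-box, 0.828% TTATGTAA and 0.108% TTACGTAA. Among the 11 member windows these counts were 1, 3, 2, 1 and 0. A match describes the letters and not binding, and no match says only that these letters are absent from that window.

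In undosed animals many clock gene probe sets, like probe sets in general, had different levels in the 3 tissues. The comparison used liver, adrenal and pancreas of the same 4 AMG B control animals on day 14, and tissues differ widely in general: 49.3% of all probe sets passed an adjusted p under 0.05 (limma, Benjamini-Hochberg over all probe sets, here and below) between liver and adrenal, 59.3% between liver and pancreas and 62.3% between adrenal and pancreas. Of the 18 member probe sets 13, 16 and 14 passed. These counts were not tested against those shares and are not read as a result about the members as a group. In bulk tissue fewer cells of a type and less RNA per cell cannot be told apart, which holds for every value below.

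The activators stood high in liver. Bmal1 (probe set 1370510_a_at) averaged 0.97 ± 0.56 in liver, -0.998 ± 0.38 in adrenal and 0.06 ± 0.33 in pancreas (SD, n = 4 each). Clock (1390199_at), its partner, averaged 1.57 ± 0.24 in liver, -0.10 ± 0.11 in adrenal and -1.07 ± 0.29 in pancreas. Both probe sets were highest in liver, with that of Bmal1 lowest in adrenal and that of Clock lowest in pancreas, and all 6 of these pairwise differences passed the test (adjusted p between 3.8e-07 and 0.020). The other 3 Clock probe sets were also higher in liver than in pancreas (adjusted p between 0.00061 and 0.0015). They did not share the rest of the order, since 1380098_at did not pass between liver and adrenal (0.31, adjusted p = 0.53), nor 1389456_at and 1369168_a_at between adrenal and pancreas (-0.01, adjusted p = 0.98, and 0.58, adjusted p = 0.25).

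The repressors of Bmal1 and the output factor Dbp had the reverse order between liver and adrenal. Nr1d1 averaged -0.10 ± 0.34 in liver, 1.22 ± 0.39 in adrenal and -0.74 ± 0.14 in pancreas. Nr1d2 (1370540_at) averaged 0.26 ± 0.47, 1.21 ± 0.22 and -0.76 ± 0.08 in the same order of tissues, and Dbp averaged -0.51 ± 0.22, 1.59 ± 0.45 and 0.48 ± 0.36. These 3 probe sets were highest in adrenal, the tissue where Bmal1 was lowest. These orders rest on the AMG B controls alone. In undosed AMG A adrenals of day 14, given below, the Bmal1 mean lay above and the Dbp mean below those of AMG B pancreas. The liver minus adrenal differences were -1.32 for Nr1d1 (adjusted p = 0.00055), -0.95 for Nr1d2 1370540_at (adjusted p = 0.0045) and -2.09 for Dbp (adjusted p = 4.6e-05). Of the other Nr1d2 probe sets, 1390430_at gave -1.36 (adjusted p = 0.0081), and 1370541_at did not pass (-0.23, adjusted p = 0.55). Bhlhe40 was also highest in adrenal, at 0.89 ± 0.29, against -0.31 ± 0.27 in liver and -0.46 ± 0.27 in pancreas, and its liver and pancreas levels did not differ beyond their spread (adjusted p = 0.56).

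The Per and Cry genes did not share one order. Per1 averaged 0.84 ± 0.68 in liver, 0.95 ± 1.07 in adrenal and -1.90 ± 0.16 in pancreas, so that pancreas stood apart while liver and adrenal did not differ beyond their spread (adjusted p = 0.87). Per2 (1378560_at) was highest in pancreas at 1.61 ± 0.27, against 0.53 ± 0.40 in liver and -1.51 ± 0.60 in adrenal, but its other probe set 1368303_at gave the opposite sign between liver and adrenal (a difference of -2.24, adjusted p = 0.00034, against 2.04 for 1378560_at). Probe sets of Tef disagreed likewise, with a liver minus adrenal difference of 2.07 for 1385374_at and -1.43 for 1390819_at, so no tissue order is given for Per2 and Tef as genes. Cry1 averaged 0.28 ± 0.70, -0.36 ± 0.16 and 0.45 ± 0.88 in liver, adrenal and pancreas, and no pair of tissues passed the test.

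**Figure D1:**
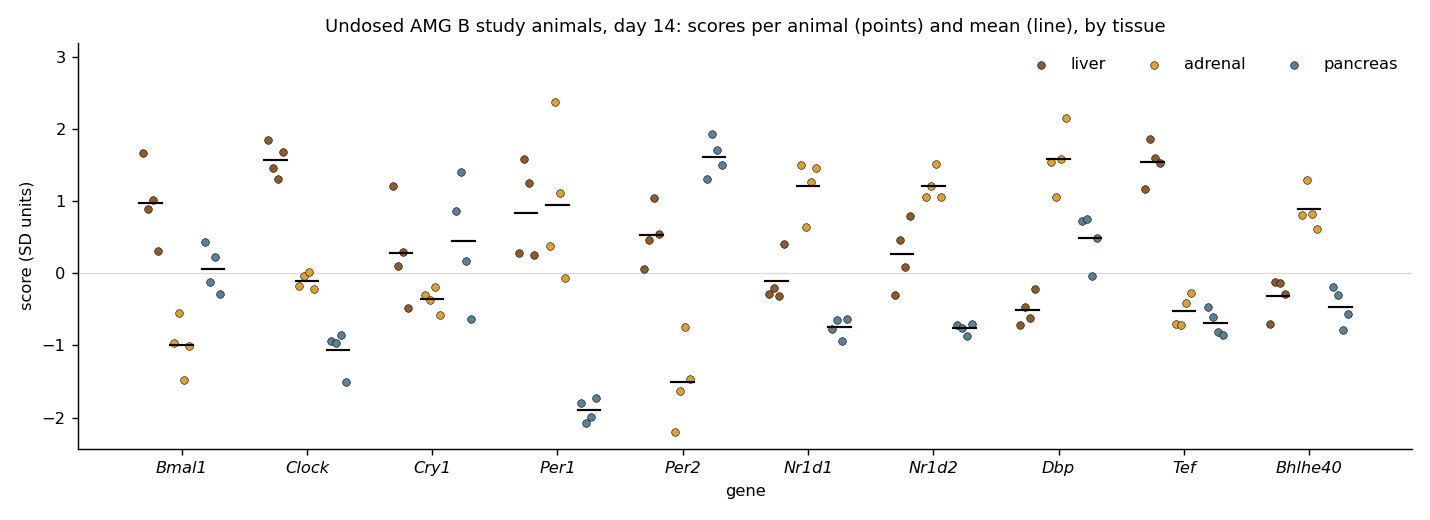
Scores (standardised, 0 is the mean of a probe set over the arrays) of the 10 clock genes in liver, adrenal and pancreas of the 4 undosed AMG B animals of day 14, 1 probe set per gene. Points are animals and short lines the mean. The plotted probe sets of Bmal1 and Clock are highest in liver, and those of Nr1d1, Nr1d2, Dbp and Bhlhe40 in adrenal.

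Of 17 other clock genes listed, 13 were measured in the larger table and 6 differed between liver and adrenal (1 higher and 5 lower in liver), 9 between liver and pancreas (7 higher, 2 lower) and 7 between adrenal and pancreas (6 higher, 1 lower). Hlf, which encodes another D-box binding factor, was higher in liver than in adrenal by 2.52 (adjusted p = 1.2e-06). Bhlhe41 and Per3 were lower in liver than in adrenal, by -2.40 (adjusted p = 5.2e-07) and -2.17 (adjusted p = 1.6e-05).

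Across days, undosed livers gave no call among the members in either study by limma. In AMG A livers 0.0063%, 0.0441% and 0.0063% of all probe sets passed for day 4 against day 1, day 14 against day 1 and day 14 against day 4, and 0, 2 and 2 of 13 member probe sets had an unadjusted p under 0.05 (6.15%, 6.89% and 5.64% of all). In AMG B livers 0%, 0% and 0.0258% of all passed, and 0, 1 and 2 of 18 member probe sets had an unadjusted p under 0.05 (7.33%, 7.18% and 10.3% of all). Bmal1 averaged 1.02 ± 0.35 on day 1, 1.90 ± 0.19 on day 4 and 0.97 ± 0.56 on day 14 in undosed AMG B livers. Its day 4 values, 1.72 to 2.14, lay above all day 1 and day 14 values, and the animals of the other 2 days overlapped. Of the 13 other clock genes Npas2, a paralog of Clock, fell between days 4 and 14 in undosed AMG B livers, by 1.42 (adjusted p = 0.041).

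Undosed adrenals of day 14 stood apart from those of days 1 and 4 across the whole array, with 25.3% of all probe sets passing against day 1 and 25.5% against day 4, and 0% between days 4 and 1, where by limma no member passed and 1 of 18 had an unadjusted p under 0.05 (7.45% of all). Of 18 member probe sets 2 passed against day 1 and 6 against day 4. These counts lie on either side of the background and are not read as a result about the members. Cry1 rose, with -1.18, -1.17, -1.03 and -1.05 on day 1, -1.30, -1.24, -1.17 and -1.33 on day 4 and -0.30, -0.38, -0.19 and -0.58 on day 14. The day 14 animals lay above all others, by 0.90 over day 4 (adjusted p = 0.013) and 0.75 over day 1 (adjusted p = 0.038). The call against day 4 held without any 1 animal, and that against day 1 was lost in 7 of 8 omissions (adjusted p up to 0.0906). Per2 1368303_at rose over day 4 by 1.49 without overlap (adjusted p = 0.0013), and this call held without any 1 animal (largest adjusted p 0.0123). Clock probe set 1380098_at rose by 1.84 over day 4 (adjusted p = 8.8e-05), while Clock probe set 1369168_a_at fell by 0.90 (adjusted p = 0.049, lost in 6 of 8 omissions) and 1390199_at averaged -0.10 ± 0.11 on day 14, so the Clock probe sets do not give 1 direction. Among the 13 other clock genes Per3, Bhlhe41 and Csnk1d rose and Npas2 and Rorb fell between days 4 and 14. Fat marker scores ran from 0.382 to 1.23 on day 1, from -0.285 to 1.9 on day 4 and from -0.493 to 0.166 on day 14 (all 6 genes), and medulla scores from 0.877 to 1.27, from 0.622 to 1.26 and from 1.34 to 1.74 (all 5 genes). Their part in the result was not tested.

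The undosed adrenals of day 14 also differed between the 2 studies at 3 of 18 member probe sets, against 1.76% of all probe sets. Nr1d2 probe set 1390430_at read 0.60, -0.46, 0.54 and 0.61 in AMG A controls, against 2.01, 1.24, 1.62 and 2.39 in AMG B controls, with no overlap (difference -1.49, adjusted p = 0.023). Tef 1390819_at was lower by -0.76 (adjusted p = 0.022) and Clock 1369168_a_at higher by 1.29 (adjusted p = 0.040) in the AMG A controls. Each of these calls was lost with some animals left out (3 of 8 for Nr1d2, 4 for Tef and 6 for Clock, adjusted p up to 0.111, 0.0962 and 0.177) and with the 2 groups alone. Dbp averaged 0.21 ± 0.55 in AMG A controls and 1.59 ± 0.45 in AMG B controls, and Bmal1 0.13 ± 0.78 and -0.998 ± 0.38, neither past the threshold over all probe sets. Of the other clock genes Per3 (-1.66, adjusted p = 0.0098) and Bhlhe41 (-1.71, adjusted p = 0.026) were lower in AMG A controls. In pancreas none of the 18 member probe sets passed between the studies by limma (0.0934% of all), with 3 at an unadjusted p under 0.05 (10.4% of all). Lymphocyte scores in these pancreases reached 6.622 in AMG A controls and -0.021 in AMG B controls, and skeletal muscle scores 3.078 and 0.056. Their part was not tested. Study, animals and any difference in sampling cannot be told apart here, which is why each dose is set only against its own study's controls.

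In AMG A livers the genes of the 2 Bmal1 repressors rose after a single day at 30 mg/kg. Nr1d1 read -0.37, -0.65, -0.084 and -0.69 in treated livers, against -1.11, -1.03, -0.99 and -1.08 in controls. All 4 treated animals lay above all controls, and the difference was 0.61 (95% interval 0.38 to 0.83, adjusted p = 0.0099). Nr1d2 rose by 0.60 on probe set 1370541_at (interval 0.37 to 0.84, adjusted p = 0.017), with -0.51, -0.75, -0.53 and -1.09 in treated livers, against -1.40, -1.26, -1.28 and -1.34 in controls. It rose by 0.74 on 1390430_at (interval 0.42 to 1.06, adjusted p = 0.024), and on 1370540_at the difference was 0.24 (adjusted p = 0.14). All 3 Nr1d2 probe sets thus lay on the same side. These 3 of 13 member probe sets were the ones called on day 1, against 0.366% of all probe sets in either direction and 0.214% higher, and the median difference of the member probe sets was 0.1763, against 0.0023 over all.

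Bmal1, the target of these repressors, read -0.84, -0.78, -1.02 and -0.28 in AMG A livers at 30 mg/kg on day 1, against 0.070, -0.26, -0.34 and 0.12 in controls. Treated and control animals overlapped in 1 treated animal, and the difference of -0.63 did not pass (interval -1.04 to -0.21, adjusted p = 0.17). Dbp differed by 0.20 (adjusted p = 0.19). On day 4 the Nr1d1 difference was 0.33 (adjusted p = 0.28) and that of Bmal1 was -0.62 (adjusted p = 0.27). On day 14 Nr1d1 averaged -1.04 ± 0.14 in treated livers and -1.13 ± 0.10 in controls, a difference of 0.09 (adjusted p = 0.80). No member was called on days 4 and 14 by limma (0.0693% and 0.353% of all probe sets), with 4 and 2 of 13 probe sets at an unadjusted p under 0.05 (10.2% and 12.6% of all). The test of the dose effect between days called 0% of all probe sets, so a shrinking of the Nr1d1 difference with time was not shown.

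The Nr1d1 call on day 1 held when any 1 of the 8 animals was left out (largest adjusted p 0.0473), but not when the 2 groups alone were fitted (adjusted p = 0.212), whereas the Nr1d2 calls were lost with some single animals left out (adjusted p up to 0.0694 and 0.112). The erythroid marker score, over 3 of 4 genes, ran from 0.562 to 1.74 in these treated livers and from 0.343 to 1.01 in controls, and that of endothelial markers, over 5 of 7 genes, from -0.611 to -0.322 and from -0.482 to -0.323. Their part in the result was not tested.

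**Figure D2:**
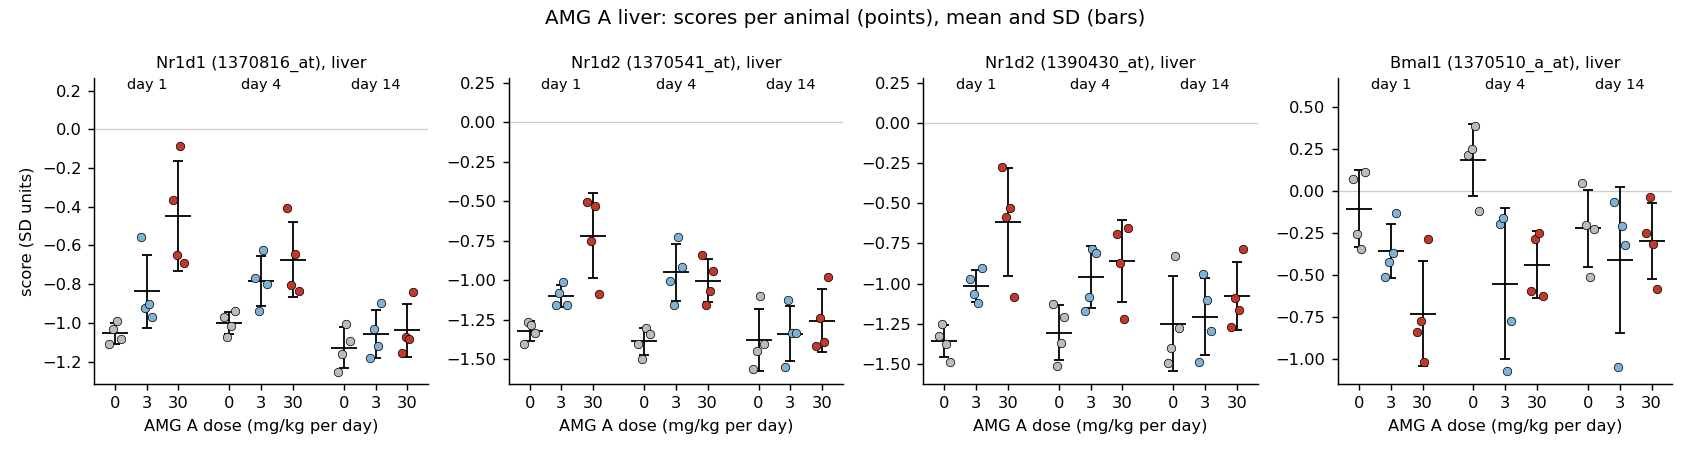
Scores of Nr1d1, 2 probe sets of Nr1d2 and Bmal1 in AMG A livers at 0, 3 and 30 mg/kg on days 1, 4 and 14; points are animals, bars the mean and SD of 4. On day 1 the 30 mg/kg animals lie above all controls for Nr1d1 and both Nr1d2 probe sets.

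In AMG B livers single probe sets of Nr1d2 and Clock differed from controls at the highest dose on day 14. Nr1d2 1370540_at rose, with 0.48, 2.19, 1.32 and 1.16 in livers at 60 mg/kg, against -0.30, 0.46, 0.085 and 0.80 in controls, a difference of 1.03 (interval 0.41 to 1.64, adjusted p = 0.041). Animal 33, with the 0.48, lay among the controls and the other 3 treated animals above them. The other Nr1d2 probe sets differed by 0.55 and 0.52 (adjusted p = 0.48 each). Clock 1389456_at fell, with 1.04, -0.62, -1.34 and 0.49, against 1.77, 1.46, 1.30 and 1.32, and every treated animal lay below every control (difference -1.57, interval -2.25 to -0.88, adjusted p = 0.0048). It was also lower than at 3 mg/kg, by -1.44 (adjusted p = 0.013), where 3.79% of all probe sets passed, and this call was lost without animal 35 (adjusted p = 0.0615) and with the 2 groups alone (adjusted p = 0.334). Clock 1390199_at differed by -0.49 (adjusted p = 0.25) and Clock 1369168_a_at by 0.66 (adjusted p = 0.20), so the fall is that of 1 probe set of 4.

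These were 2 of 18 member probe sets, against 5.66% of all, and the median difference was 0.3301 for the member probe sets and 0.0121 over all. This count is not read as a result about the members as a group. Bmal1 read 1.60, -1.21, -0.90 and -0.23 at 60 mg/kg, against 1.68, 0.90, 1.02 and 0.31 in controls. In the same order of animals Dbp read -0.76, 0.77, 0.39 and -0.12 at 60 mg/kg, against -0.72, -0.47, -0.62 and -0.21. The Bmal1 value of animal 33 lay among the controls and its Dbp value just below the lowest control, while the other 3 treated animals lay below all controls in Bmal1 and above all controls in Dbp. Neither difference passed (Bmal1 -1.16, interval -2.33 to 0.01, adjusted p = 0.27; Dbp 0.57, interval -0.01 to 1.16, adjusted p = 0.26). Days 1 and 4 gave no member call by limma (0.0548% and 0.68% of all probe sets passed), with 0 and 1 of 18 at an unadjusted p under 0.05 (8% and 12.1% of all).

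The Clock call held without any 1 animal (largest adjusted p 0.0246) and was lost when the 2 groups alone were fitted (adjusted p = 0.238), and the Nr1d2 call was lost in both ways (adjusted p up to 0.169 and 0.315). Endothelial marker scores in these livers ran from -0.529 to -0.379 at 60 mg/kg and from 0.00254 to 0.678 in controls (6 of 7 genes), erythroid scores from -0.87 to -0.179 and from 1.27 to 1.58 (3 of 4 genes), and macrophage scores from -0.904 to 1.26 and from 0.65 to 1.63 (all 6 genes). Endothelial and erythroid scores therefore moved with the dose without overlap, and their part in the clock gene values was not tested.

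In AMG B adrenals on day 14 Bhlhe40 rose at 60 mg/kg. It read 0.82, 1.30, 0.82 and 0.62 in controls, 1.19, 2.42, 1.08 and 1.45 at 3 mg/kg and 3.30, 2.34, 3.91 and 2.45 at 60 mg/kg. Every animal at 60 mg/kg lay above every control, 1 animal at 3 mg/kg overlapped with the higher dose, and the difference from controls was 2.11 (interval 1.45 to 2.78, adjusted p = 5.5e-05). The difference from 3 mg/kg was 1.46 (adjusted p = 0.0050), in a comparison where 4.5% of all probe sets passed. Quantile normalization took this difference to 0.942 (adjusted p = 0.096), and with the 2 groups alone its adjusted p was 0.303. On day 1 Bhlhe40 averaged 1.07 ± 0.16 at 60 mg/kg and 0.40 ± 0.38 in controls, and on day 4 0.83 ± 0.51 and 0.28 ± 0.73, neither past the threshold.

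Bmal1, 1 of 4 Clock probe sets and Cry1 rose in the same adrenals. Bmal1 read 0.11, 0.12, 0.58 and 0.22 at 60 mg/kg, against -0.96, -0.55, -1.47 and -1.003 in controls, without overlap (difference 1.26, interval 0.46 to 2.06, adjusted p = 0.0495). The Bmal1 mean of undosed AMG A adrenals of day 14, given above, lay inside the range of these treated animals. Clock 1390199_at read 0.15, 0.64, 1.05 and 0.67, against -0.18, -0.033, 0.012 and -0.22, also without overlap (difference 0.73, interval 0.31 to 1.15, adjusted p = 0.026). The other Clock probe sets differed by 0.57, 0.29 and 0.20 (adjusted p = 0.40, 0.73 and 0.75), and the mean of the Clock probe sets by 0.448 (adjusted p = 0.143). Cry1, whose protein inhibits both, read 0.73, -0.20, 1.21 and 0.28, against -0.30, -0.38, -0.19 and -0.58, with 1 treated animal inside the control range (difference 0.86, interval 0.32 to 1.41, adjusted p = 0.048). Cry1 was also higher than at 3 mg/kg, by 1.10 (adjusted p = 0.011).

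Tef 1390819_at fell without overlap, with 0.91, 1.01, 0.58 and 1.02 at 60 mg/kg, against 1.48, 1.25, 1.51 and 1.76 in controls (difference -0.62, interval -0.99 to -0.25, adjusted p = 0.035), while Tef 1385374_at differed by -0.03. The other output factor Dbp read 0.82, 0.70, -0.29 and 1.10, against 1.55, 1.06, 1.59 and 2.16. Its groups overlapped in 1 animal, and the difference of -1.01 did not pass (interval -1.94 to -0.08, adjusted p = 0.21). Together 5 of 18 member probe sets passed, 4 higher and 1 lower, against 5.96% of all (3.12% higher and 2.85% lower), with a median difference of -0.0919 for the member probe sets and 0.0009 over all. Nr1d1 differed by -0.49 on day 14 (adjusted p = 0.53). Undosed AMG A adrenals of day 14 were also lower than these controls in Tef 1390819_at (-0.764). Their Dbp mean, given above, lay inside the range of the animals at 60 mg/kg. Of the 5 probe sets called, Tef 1390819_at alone was also called between the undosed adrenals of the 2 studies. The part of differences between control groups in these values was not tested.

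Earlier adrenals at 60 mg/kg gave no member call by limma, where 0.335% of all probe sets passed on day 1 and 0.889% on day 4. With an unadjusted p under 0.05 there were 2 of 18 on day 1 (8.92% of all) and 1 on day 4 (11.4% of all). On day 1 Nr1d1 read 2.48, 2.41, 2.46 and 2.40 at 60 mg/kg, against 0.62, 1.29, 1.86 and 1.35 in controls. The treated animals lay close together above every control, and the difference of 1.16 did not pass over all probe sets (interval 0.41 to 1.90, adjusted p = 0.19).

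Of the 5 calls in adrenal on day 14, that of Bhlhe40 held without any 1 animal (largest adjusted p 0.000561), but with the 2 groups alone its adjusted p was 0.0719. Those of Bmal1 and Cry1 were each lost in 7 of 8 omissions, that of Tef in 5 and that of Clock in 4. The adjusted p rose up to 0.146 for Bmal1, 0.121 for Clock, 0.222 for Cry1 and 0.133 for Tef. With the 2 groups alone the adjusted p of these 4 ran from 0.064 to 0.234. Array weights lost all 4 calls (adjusted p from 0.0677 to 0.169). Quantile normalization and array median centring each lost Bmal1 and Cry1, and the filter on low values lost Cry1 (adjusted p = 0.0516). Endothelial scores ran from -0.943 to 0.568 in these adrenals and from 0.47 to 0.859 in controls (6 of 7 genes), medulla scores from 0.242 to 2.35 and from 1.34 to 1.74 (all 5 genes), fat scores from -0.431 to 1.12 and from -0.493 to 0.166 (all 6 genes), and cortex scores from 1.25 to 1.49 and from 1.2 to 1.52 (5 of 7 genes). Their part in the clock gene values was not tested.

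**Figure D3:**
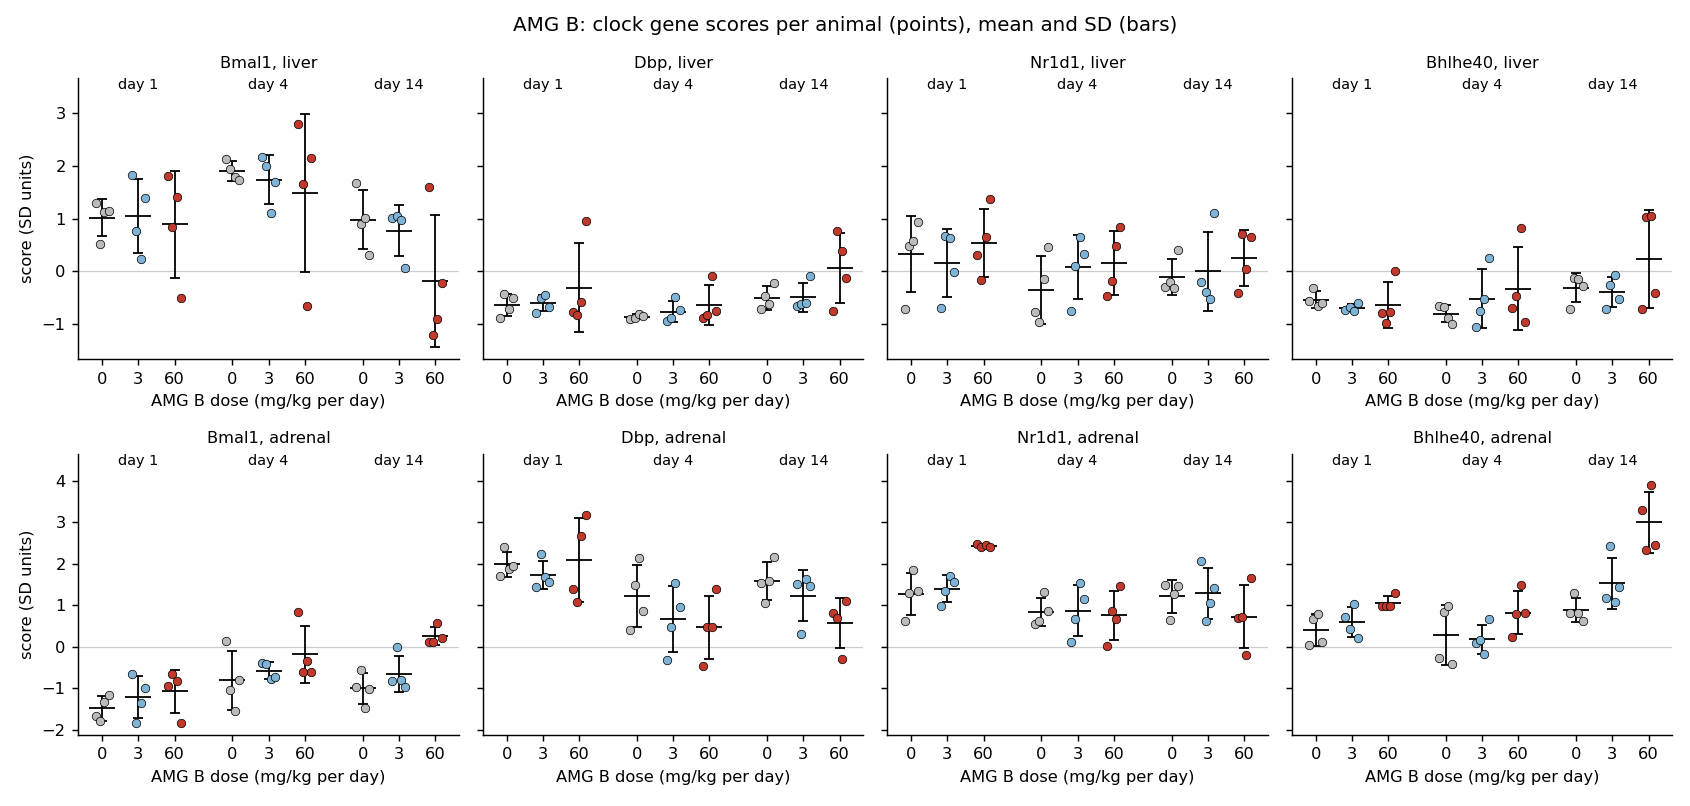
Scores of Bmal1, Dbp, Nr1d1 and Bhlhe40 in AMG B livers (top) and adrenals (bottom) at 0, 3 and 60 mg/kg on days 1, 4 and 14; points are animals, bars the mean and SD of 4. On day 14 Bmal1 and Bhlhe40 at 60 mg/kg lie above all controls in adrenal, whereas Bmal1 in liver spreads from -1.21 to 1.60.

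The high-dose effect differed between the 2 organs. On day 14, 6 of 18 member probe sets had a different effect of 60 mg/kg AMG B in liver than in adrenal, against 5.23% of all. The effect in liver minus that in adrenal was -2.41 for Bmal1 (interval -3.75 to -1.08, adjusted p = 0.020), which lay at -1.16 in liver and 1.26 in adrenal. It was -1.33 for Cry1 (adjusted p = 0.032), -1.22 for Clock 1390199_at (adjusted p = 0.0084), -1.77 for Clock 1389456_at (adjusted p = 0.0052) and -1.56 for Bhlhe40 (adjusted p = 0.046). For Bhlhe40 quantile normalization gave -0.942 (adjusted p = 0.311), and the call was lost in 7 of 8 omissions. For Nr1d2 1370540_at it was 1.40 (adjusted p = 0.048), and for Dbp 1.58 (adjusted p = 0.074). The other Clock probe sets gave 0.10 and -0.60 (adjusted p = 0.95 and 0.64), the other Nr1d2 probe sets 0.86 and 1.54 (adjusted p = 0.37 and 0.066), and the mean of the Nr1d2 probe sets 1.266 (adjusted p = 0.0688). Of the 6 calls 5 were lower in liver and 1 higher, while the median over the 18 member probe sets was 0.3707, against 0.0138 over all. The same animals gave both organs, and with the animal as a block the count was also 6. The count fell to 1 without animal 35, to 2 without control animal 25 or 27 and to 0 when the compared groups alone were fitted. Days 1 and 4 gave no member call by limma (0.0226% and 0.261% of all probe sets passed), with 0 and 2 of 18 at an unadjusted p under 0.05 (6.11% and 10.3% of all).

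In AMG B pancreas on day 14 Per1 rose and Dbp and a probe set of Per2 fell at 60 mg/kg. Per1, an immediate target of CLOCK and BMAL1 that also answers to hormones and stress, read -0.16, -0.79, -0.60 and -0.57 at 60 mg/kg, against -1.80, -2.07, -1.99 and -1.72 in controls. It rose by 1.37 without overlap (interval 0.85 to 1.88, adjusted p = 0.0022) and stood 1.25 above the 3 mg/kg animals (adjusted p = 0.0086, with 3.68% of all probe sets passing). Per2 1378560_at fell, with -1.22, 0.97, 0.20 and 0.35, against 1.31, 1.93, 1.71 and 1.51, again without overlap (difference -1.54, interval -2.29 to -0.80, adjusted p = 0.010). The other Per2 probe set differed by -0.20 (adjusted p = 0.84), and their mean by -0.871 (adjusted p = 0.0645). Dbp fell without overlap, with -0.50, -0.12, -0.32 and -0.56, against 0.73, 0.75, -0.036 and 0.49 (difference -0.86, interval -1.36 to -0.36, adjusted p = 0.029). Bmal1 differed by -0.26 (adjusted p = 0.69) and Nr1d1 by 0.14 (adjusted p = 0.62). Clock 1390199_at differed by 0.69 without overlap (interval 0.02 to 1.37, unadjusted p = 0.045, adjusted p = 0.18) and Bhlhe40 by 0.74 (interval 0.01 to 1.46, unadjusted p = 0.046, adjusted p = 0.18). The other Clock probe sets differed by 0.06, 0.42 and -0.38 (adjusted p = 0.95, 0.35 and 0.67). Tef 1369919_at differed by -1.49, Tef 1385374_at by -0.40 and Nr1d2 1370541_at by 0.55 (unadjusted p = 0.0086, 0.041 and 0.034, adjusted p = 0.069, 0.17 and 0.16). Effects in pancreas and adrenal were not tested against each other.

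These were 3 of 18 member probe sets, against 9.88% of all probe sets, and groups failed to overlap at 5 of 18 member probe sets, against 17.9% of all. Neither count is read as a result about the members as a group. Scores of marker genes of other kinds also differed in these pancreases. Acinar scores ran from 1.55 to 1.73 at 60 mg/kg and from 2.30 to 3.12 in controls (7 of 8 genes), and immediate early gene scores from 0.332 to 0.873 and from -0.511 to -0.0287 (all 9 genes), both without overlap. Islet scores ran from 1.8 to 2.88 at 60 mg/kg and from 1.34 to 2.8 in controls, and 2 of the 5 islet markers fell (median difference -0.3912). Endothelial scores ran from -0.937 to 0.409 at 60 mg/kg and from -0.0663 to 0.633 in controls, and 2 of 6 endothelial markers fell (4 at an unadjusted p under 0.05, median difference -0.7016). The lymphocyte score reached 5.59 in animal 33 and the skeletal muscle score 5.27 in animal 36, against at most -0.0213 and 0.0561 in controls. Their part in the result was not tested. Per1 and Per2 kept their calls without animal 33 (adjusted p = 0.00803 and 0.0284) and without animal 36 (adjusted p = 0.00566 and 0.0158), and Dbp lost its call without either (adjusted p = 0.073 and 0.0672), as it did without animal 35 or control animal 25, 26 or 28 (adjusted p up to 0.0872). With the 2 groups alone Per1 stayed past the threshold (adjusted p = 0.0158) and Per2 and Dbp did not (adjusted p = 0.104 and 0.0884).

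AMG A left the clock genes of adrenal and pancreas without a call on day 14. None of 18 member probe sets passed in either tissue at 30 mg/kg by limma, where 0% and 0.00322% of all probe sets passed, with 1 and 0 at an unadjusted p under 0.05 (5.8% and 6.72% of all). The 1 was Per1 in adrenal, which read -0.62, -1.39, -1.82 and -0.66 at 30 mg/kg, against 0.078, 0.84, 2.08 and -0.091 in controls. Treated animals lay below every control, with a difference of -1.85 (interval -3.25 to -0.45, unadjusted p = 0.011, adjusted p = 0.71). Immediate early genes, a list of 9, had a score of 0.25 to 0.458 in these treated adrenals and of 0.58 to 1.85 in controls, without overlap and without a call. Endothelial scores ran from -0.222 to 0.0235 in treated adrenals and from 0.201 to 0.596 in controls. The part of either in the Per1 values was not tested. In the AMG A control pancreases lymphocyte scores ran from -0.037 to 6.622 and skeletal muscle scores from -0.116 to 3.078. Their part in the absence of calls in pancreas was not tested.

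At 3 mg/kg no member was called by limma in any of the 12 combinations of compound, tissue and day, over which 0.0125% of all values passed. Of 201 member values 10 had an unadjusted p under 0.05, against 5.93% of all, and the lowest adjusted p was 0.30. In AMG A livers on day 4 Nr1d2 1370541_at differed by 0.44 (interval 0.20 to 0.67, adjusted p = 0.32) and Bmal1 by -0.73 (interval -1.15 to -0.32, adjusted p = 0.32), both without overlap between the groups. Tef 1369919_at differed by -1.71 in AMG B pancreas on day 14 (interval -2.78 to -0.65, adjusted p = 0.30). Groups did not overlap at 9 of the 201 member values. As the share over all is not given, that count is not read as a result. The 2 compounds share 3 mg/kg on day 14 as their only matched dose and day within 1 table, and the difference between their effects was not called at any of 18 member probe sets in adrenal or pancreas by limma (0.00644% and 0% of all), with 0 and 4 at an unadjusted p under 0.05 (4.59% and 9.37% of all). Bmal1 in pancreas had an effect of 0.77 under AMG A (interval 0.02 to 1.53) and -0.43 under AMG B (interval -1.19 to 0.32), and these differed by 1.21 (interval 0.14 to 2.27, adjusted p = 0.52). The high doses of 30 and 60 mg/kg differ and were not tested against each other.

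Several clock genes varied together among animals of the same group. After subtracting each group's mean, animals high in Bmal1 were low in Dbp in 3 of 4 sets: Pearson's r was -0.615 in AMG A liver (36 arrays), -0.849 in AMG B liver (36) and -0.804 in adrenal (48), with Spearman's rho of -0.545, -0.842 and -0.773. Permutation p-values within groups were 0.00071, 1e-05 and 1e-05, the last being the smallest that 100000 permutations can give, and 0.00248, 8.75e-05 and 8.75e-05 after Benjamini-Hochberg adjustment over 35 relations. Without the 2 arrays farthest from the median of Bmal1 r was -0.526, -0.828 and -0.797. In pancreas (24 arrays) r was 0.0985 and rho 0.161 (permutation p = 0.681, adjusted p = 0.768), so no relation was detectable there.

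**Figure D4:**
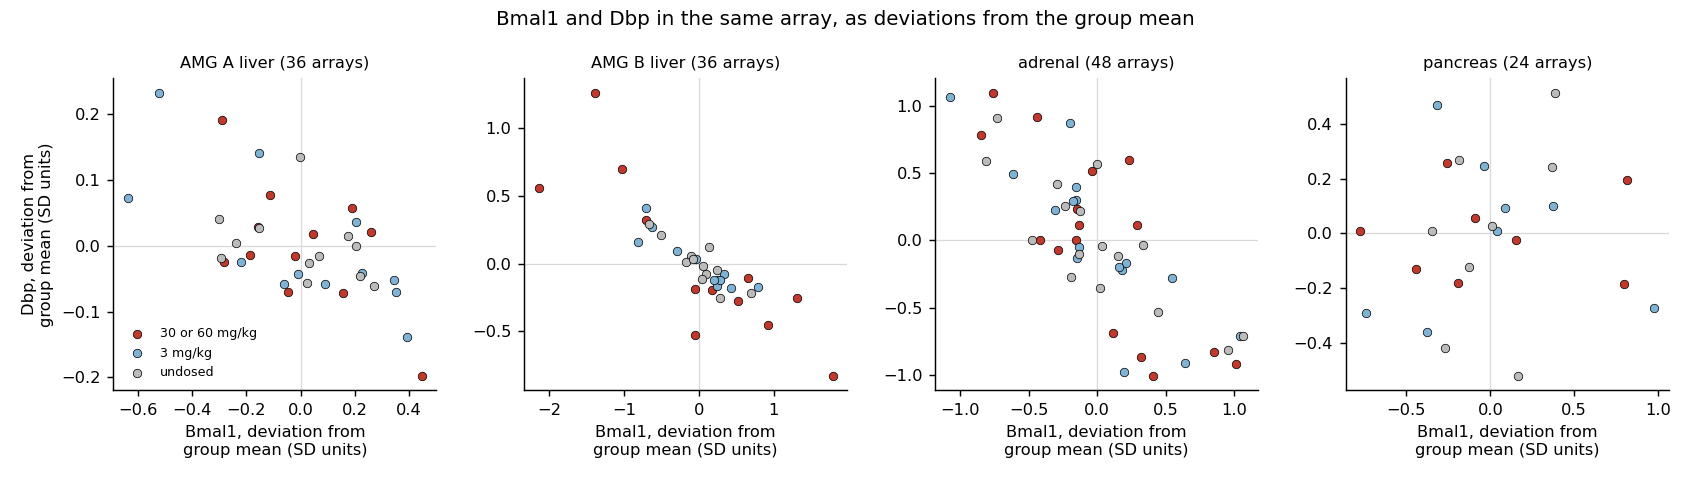
Deviation of each array from its group mean for Dbp against Bmal1 (scores), in AMG A liver, AMG B liver, adrenal and pancreas with 36, 36, 48 and 24 arrays. Points fall along a descending line in the first 3 panels (r = -0.615, -0.849 and -0.804) and not in pancreas (r = 0.0985).

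Nr1d1 went with Dbp in this respect. Its r with Bmal1 was -0.572 in AMG A liver, -0.571 in AMG B liver and -0.654 in adrenal (adjusted permutation p = 0.00248, 0.00233 and 8.75e-05). Nr1d2 (1370540_at) gave -0.525, -0.767 and -0.455 (adjusted permutation p = 0.00892, 8.75e-05 and 0.0205). In pancreas neither passed (r = -0.17 for Nr1d1 and -0.333 for Nr1d2, adjusted permutation p = 0.536 and 0.315). Cry1 and Clock had the opposite sign where they passed. Cry1 gave r = 0.474 in AMG B liver, 0.576 in adrenal and 0.591 in pancreas (adjusted permutation p = 0.0205, 0.00126 and 0.0087). Clock (1390199_at) gave 0.715 in AMG B liver and 0.556 in adrenal (adjusted permutation p = 0.0028 and 0.00248). It did not pass in AMG A liver (r = 0.0763, adjusted permutation p = 0.752) or pancreas (r = -0.403, adjusted permutation p = 0.174). The other Clock probe sets were not used here. Per2 (1378560_at) and Bhlhe40 were negatively related to Bmal1 in AMG B liver (r = -0.637 and -0.72, adjusted permutation p = 0.00245 and 0.00376), and in no other set where they were measured. In AMG A liver 1378560_at was not measured, and Per2 was read on 1368303_at (r = -0.103, adjusted permutation p = 0.752). Tef was read on 1369919_at there and on 1385374_at in the other sets. Per1 was positively related in adrenal alone (r = 0.43, adjusted permutation p = 0.0216). In all 17 of 35 relations passed, and Tef in none of the sets. Where a relation passed, Clock and Cry1 deviated to the same side as Bmal1, and Dbp, Nr1d1 and Nr1d2 to the other side.

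The same animal tended to deviate alike in its 2 organs for Cry1 and Nr1d1. Over the 36 AMG B animals the liver and adrenal deviations correlated at r = 0.607 for Cry1 (rho 0.721, permutation p = 0.00018, adjusted over 10 genes 0.0018, r without the 2 farthest animals 0.618) and at 0.554 for Nr1d1 (rho 0.566, permutation p = 0.00189, adjusted 0.00945, without the 2 farthest 0.538). Bmal1 gave 0.379 and Dbp 0.375, neither past the threshold (adjusted permutation p = 0.17 each). The other 6 members gave between -0.123 and 0.389.

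Genes outside the list whose deviations were most like those of Bmal1, by the lowest r of AMG A liver, AMG B liver and adrenal among 12777 probe sets, were Pnrc1 (0.442), Lgalsl (0.377), Nfil3 (0.366) and Tprn (0.336). Nfil3 encodes E4BP4, the repressor that competes with DBP and TEF at D-boxes. For Dbp they were Cetn3 (0.371), Casp4 (0.367), Tm2d1 (0.362) and Ticam1 (0.346). The arrays share animals and processing, and these values are descriptions without a test.

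Of the 13 other clock genes 4 passed in pancreas at 60 mg/kg AMG B on day 14, where 9.88% of all probe sets passed: Csnk1e rose by 2.14 (adjusted p = 0.0054) and Csnk1d by 1.76 (adjusted p = 0.0027), which encode kinases that mark PER proteins for degradation, Bhlhe41 rose by 1.17 (adjusted p = 0.019) and Per3 fell by 1.21 (adjusted p = 0.012). The median difference of the list was 0.3558, against -0.0172 over all probe sets. In adrenal, with 5.96% of all passing, 1 of 13 passed, the rhythmic phosphatase gene Noct, with 0.929 (adjusted p = 0.041; list median -0.0491 against 0.0009 over all). In liver, with 5.66% of all passing, none of 13 passed by limma (median 0.0692 against 0.0121). At an unadjusted p under 0.05 there were 2, and as the share over all is not given, these are not read as a result. Timeless was higher at 60 than at 3 mg/kg by 1.43 (adjusted p = 0.035). The counts of the 3 tissues were not tested against each other. At 30 mg/kg AMG A none of 10 passed in liver by limma on days 1, 4 and 14 (0.366%, 0.0693% and 0.353% of all). With an unadjusted p under 0.05 there were 2 on day 4 (10.2% of all) and 3 on day 14 (12.6% of all). On day 1 there were 4, and as the share over all is not given, these are not read as a result.

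Of 11 measured clock-controlled output genes, at 60 mg/kg AMG B on day 14, the liver glycogen synthase gene Gys2 rose by 1.80 in liver (adjusted p = 0.0088). In adrenal Tspo, which encodes a cholesterol-binding mitochondrial protein, fell by 0.513 (adjusted p = 0.0015), and Gys2 rose by 0.172 (adjusted p = 0.049). In pancreas Nampt, the rate-limiting enzyme of NAD salvage, rose by 0.655 (adjusted p = 0.027). The medians of the list were 0.1580 in liver, 0.1720 in adrenal and 0.0185 in pancreas, against 0.0121, 0.0009 and -0.0172 over all probe sets. Of 8 measured glucocorticoid-responsive genes the metallothionein genes alone passed: Mt2A rose by 1.05 in liver (adjusted p = 0.0019) and by 0.996 in adrenal (adjusted p = 0.00061), and Mt1 by 1.75 in adrenal (adjusted p = 0.0083), while Fkbp5, Tsc22d3 and Sgk1 did not pass in any of the 3 tissues. Metallothioneins answer to metals as well as to glucocorticoids. None of the 8 passed in pancreas by limma (1 at an unadjusted p under 0.05), and the medians were 0.2094, -0.0681 and -0.1747 in liver, adrenal and pancreas. Of 9 immediate early genes Junb rose in liver by 0.522 (adjusted p = 0.039), none passed in adrenal by limma (2 at an unadjusted p under 0.05), and Egr1 and Atf3 rose in pancreas by 2.70 (adjusted p = 0.011) and 3.28 (adjusted p = 0.021), with medians of -0.1112, -0.2747 and 0.2274 in liver, adrenal and pancreas. At 30 mg/kg AMG A none of these 3 lists had a called gene in any tissue by limma. With an unadjusted p under 0.05 a comparison held at most 2 output, 3 glucocorticoid-responsive and 4 immediate early genes. Each time this was in adrenal, where 5.8% of all probe sets had such a p. For 60 mg/kg AMG B on day 14 that share is not given, so the unadjusted counts of these lists are not read as results.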

How the data were processed

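RNA (5 ug total, extracted with Qiagen RNeasy midi kits and biotin-labelled in 1 cycle, per the labels' protocols) was hybridised to Affymetrix rat arrays. The deposited values are scores: the 15866 probe sets present in both tables had, over 144 arrays, a median mean of 0.004 and a median SD of 1.006, so they were standardised per probe set by the authors. The sources used here do not give the step before that, its scale, the software or the scan order, and standardising removes any comparison of levels between genes and turns fold changes into SD units. The fits had been planned for log2 values and were run on the scores as deposited.

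limma 3.58.1 in R 4.3.3 (lmFit, contrasts.fit, eBayes with trend) was fitted to all 15866 or 31042 probe sets of a table, separately for AMG A liver, AMG B liver, adrenal, pancreas, liver with adrenal, and the undosed tissues, with 1 term per group. All tests are two-sided and adjusted by Benjamini and Hochberg's method over all probe sets of a comparison, with a threshold of 0.05. The deposited tables give no signal over background, and the 4 arrays per group limit the precision. No 2 arrays correlated above 0.792, so none was treated as a repeat. Separate animals are numbered in the labels. Correlations used deviations from group means and 100000 permutations within groups, with Python 3.11.15 and scipy 1.17.1. Members with several probe sets are represented by the one with the largest share of variance between the 27 groups of the larger table, and the others are named where they differ. Names came from the platform annotation, and promoters from RefSeq.

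The members and all gene lists (other clock, output, glucocorticoid-responsive, immediate early and cell type marker genes) were chosen with earlier results of these data known. Alternatives were quantile normalization, array median centring, array weights, the mean of a gene's probe sets, a filter keeping probe sets that exceed the 40th percentile of an array in 4 or more arrays, the compared groups alone (fewer arrays behind the spread), each animal left out, and the animal as a block. On scores the filter keeps or drops probe sets by their standing against their own mean, not by signal strength. Animal numbers are shared between tissues: the median r of deviations was 0.0415 for liver and adrenal of the same animal, against -0.000933 between animals. The scripts were tested on simulated data.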

Additional observations from a re-analysis of the deposited data

Results flagged for a closer look

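Single animals stood apart from the other 3 of their group in 16 of 351 groups tested for the member genes, and chance flags about 1 in 20 groups. Animal 30 stood apart in adrenal at 3 mg/kg AMG B on day 14 for Bmal1 (-0.00282, high) and Dbp (0.32, low). Animal 32 stood apart in liver at the same dose and day for Bmal1 (0.0619, low) and Dbp (-0.0792, high), and in pancreas for Nr1d1 (-0.229, high). Both animals thus had Bmal1 and Dbp on opposite sides of their group. Animal 12, at 60 mg/kg on day 1, was high in Dbp in liver (0.952) and in Per2 (2.16) and Bhlhe40 (1.31) in adrenal. Animal 3013, at 3 mg/kg AMG A on day 1, was high in liver in Nr1d1 (-0.557) and Dbp (-0.846).

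Among undosed animals, animal 14 of day 4 was high in Cry1 in liver (0.373) and in Nr1d2 in adrenal (1.49), animal 3 of day 1 stood apart in liver Clock (0.98), animal 28 of day 14 in liver Nr1d1 (0.41) and animal 3010 of day 14 in adrenal Clock (0.905). Animal 7, at 3 mg/kg AMG B on day 1, was low in liver Per1 (0.0263).

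The effect of 60 mg/kg AMG B on day 14 differed between liver and adrenal, by the test of the difference itself, for Bhlhe40 (-1.56), Bmal1 (-2.41), Nr1d2 (1.40), Clock 1389456_at (-1.77), Clock 1390199_at (-1.22) and Cry1 (-1.33).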

How the results depend on the processing

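Of 77 member values past the threshold, 45 kept their call in every omission of 1 animal and 35 also under every other alternative. When only the compared groups were fitted, the counts of called member probe sets became 0 in AMG A liver (3 in the full fit), 0 for high against low dose (4), 0 in AMG B liver (2), 0 in AMG B adrenal (5), 0 between the undosed animals of the 2 studies (3), 1 in AMG B pancreas (3) and 0 for liver against adrenal (6), with fewer arrays behind the spread. Quantile normalization gave 1 in AMG B liver, 3 in AMG B adrenal and 3 for liver against adrenal. Array weights gave 1, 1 and 2 in the same comparisons, and median centring gave 3 in AMG B adrenal. With the mean of a gene's probe sets, which tests fewer features, the counts were 0 in AMG B liver, 3 in AMG B adrenal, 2 in undosed adrenal across days (8), 0 between the 2 studies and 21 between tissues (43), and 2 liver minus adrenal differences of undosed animals reversed: Per2 to -0.10 (adjusted p = 0.805) and Tef to -0.058 (adjusted p = 0.837), since their probe sets oppose each other. The filter gave 1 in AMG B pancreas, because it removed Per1's probe set and left Dbp at an adjusted p of 0.0515. Scores are relative to each probe set's own mean, so this removal does not show a weak Per1 signal. The cause of the other shifts was not tested. With the animal as a replicate block the counts were 6 for liver against adrenal and 43 between tissues, as without it, and this pairing changed no call.

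Leaving out 1 animal gave 1 to 3 calls in AMG A liver, 3 to 6 for high against low dose, 0 to 1 for the high-dose effect between days, 1 to 3 in AMG B liver, 1 to 5 in AMG B adrenal, 5 to 8 in undosed adrenal across days, 0 to 3 between the 2 studies, 2 to 3 in AMG B pancreas, 1 to 7 for liver against adrenal and 37 to 40 between tissues. Treated and control animals both decided counts. AMG A liver fell to 1 without 3025 or 3027 or control 3001 or 3004. AMG B liver fell to 1 without 34, 35 or 36 or control 25, 26 or 27. AMG B adrenal fell to 2 without 33 or 36 or control 27, and to 1 without 35 or control 25 or 28. Liver against adrenal fell to 1 without 35 and to 2 without control 25 or 27. Among undosed animals, adrenal across days fell to 5 without 13, 16 or 28, and the comparison of the studies to 1 without 25 or 27 and to 0 without 28 or 3010. The high-dose effect between days gave its 1 call without 33 in liver, or without 34 or 36 in adrenal. The correlations with Bmal1 gave 16 to 18 passing relations (17) and those between organs 2 to 3 (2).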
